A study of Mus musculus with 8 samples.

Results

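Mouse CJ7 embryonic stem (ES) cells carrying a short hairpin RNA (shRNA) against both isoforms of Sall4 were compared with cells that also carried a Sall4b cDNA. The comparison takes 4 of the 8 arrays of the study: 2 of depleted cells and 2 of Sall4b-only cells, chosen by their titles and by the matching columns of the deposited table. The shRNA of depleted cells was lentiviral and targets Sall4a and Sall4b. Sall4b-only cells carried the same shRNA and a Sall4b cDNA that the shRNA cannot target, so the groups share the shRNA and differ, by label, in the added cDNA. No array was of depleted cells with an empty cDNA vector. The cDNA therefore cannot be told apart from its vector or from the making of the cells that carry it. The other arrays were of control cells, infected with a lentivirus that holds no shRNA, and of Sall4a-only cells, given the shRNA and a resistant Sall4a cDNA. Infection lasted 24 hours in polybrene at 2.5 mcg/mL, after which the medium held LIF and puromycin at 2 mcg/mL, and RNA was taken at 48 hours, per the labels. Replicates are labelled as biological with no account of separate cultures, so a p-value here covers array-to-array spread that may be technical.

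Sall4 is a zinc-finger transcription factor of ES cells, the early embryo and germ cells. Its transcript is spliced into a longer isoform, Sall4a, and a shorter one, Sall4b, which keeps the zinc fingers at its C-terminal end. The protein is known to bind AT-rich DNA, to work beside Oct4 and Nanog in ES cells and to recruit the NuRD complex, a histone deacetylase and chromatin remodelling complex. Loss of Sall4 from mouse ES cells is known to favour trophoblast genes.

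The ES cell label held on every array. All 8 ES cell markers examined (Pou5f1, Nanog, Sox2, Zfp42, Esrrb, Tdgf1, Dppa5a and Utf1) were called present on both arrays of each group, and their summed intensity ran from 70114 to 70503 on depleted and from 79359 to 80928 on Sall4b-only arrays. Array medians of intensity ran from 140.7 to 149.8, and 62.1% to 66.5% of probe sets were called present. Replicates were close in the groups compared, with an SD over genes of the replicate difference of 0.27 log2 in depleted and 0.28 in Sall4b-only cells, against 0.41 in control and 0.62 in Sall4a-only cells. The Sall4a-only arrays stood apart from each other, with 1160 genes over 1 log2 apart, against 100 in depleted and 133 in Sall4b-only cells. Precision is limited by array number: with 2 arrays in each group, the smallest two-sided p of an exact permutation test is 0.333.

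Return of Sall4b was not visible at the Sall4 probe sets. The brighter probe set read a mean intensity of 10411 ± 111 (SD, n = 2) in depleted and 9745 ± 252 in Sall4b-only cells, against 14427 ± 918 in control cells. The dimmer read 147 ± 13.3 in depleted, 177 ± 47.8 in Sall4b-only and 348 ± 20.1 in control cells. Sall4b-only minus depleted was -0.10 log2 (SE 0.11) at the brighter and 0.25 (SE 0.20) at the dimmer probe set, so the probe sets differed in sign and neither difference passed. Where their probes lie on the transcript was not used here, so the arrays do not check that the cDNA was expressed, and the group is named by its label throughout.

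Add-back of Sall4b was accompanied by large differences at a limited number of genes, most of them lower. Secreted matrix, contractile, protease and epithelial genes were lower in Sall4b-only cells, and Sema3d, Bmp7, Bmp2, Bmp4 and Dlx3 were higher. With a mean difference of at least 2-fold (1 log2) and no overlap between the arrays, 95 of 14027 genes (0.677%) were higher and 278 (1.98%) were lower. Small differences mostly ran the other way: both Sall4b-only arrays lay above both depleted arrays for 5308 genes (37.8%) and below them for 2646 (18.9%), and the median difference over all genes was 0.06 log2.

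No gene passed the test. In limma, fitted to all 8 arrays and adjusted by Benjamini-Hochberg over 14027 genes, 0 genes (0%) passed 0.05 in either direction, and the smallest adjusted p was 0.0536. At an unadjusted p under 0.05, 716 genes (5.1%) were higher and 527 (3.76%) were lower. Leaving out the Sall4a-only arrays, whose replicates lay far apart, gave 12 genes higher and 54 lower, and the 4 arrays alone gave 9 and 52; 44 genes passed in both of these fits. Genes are therefore called higher or lower as a description.

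**Figure D1:**
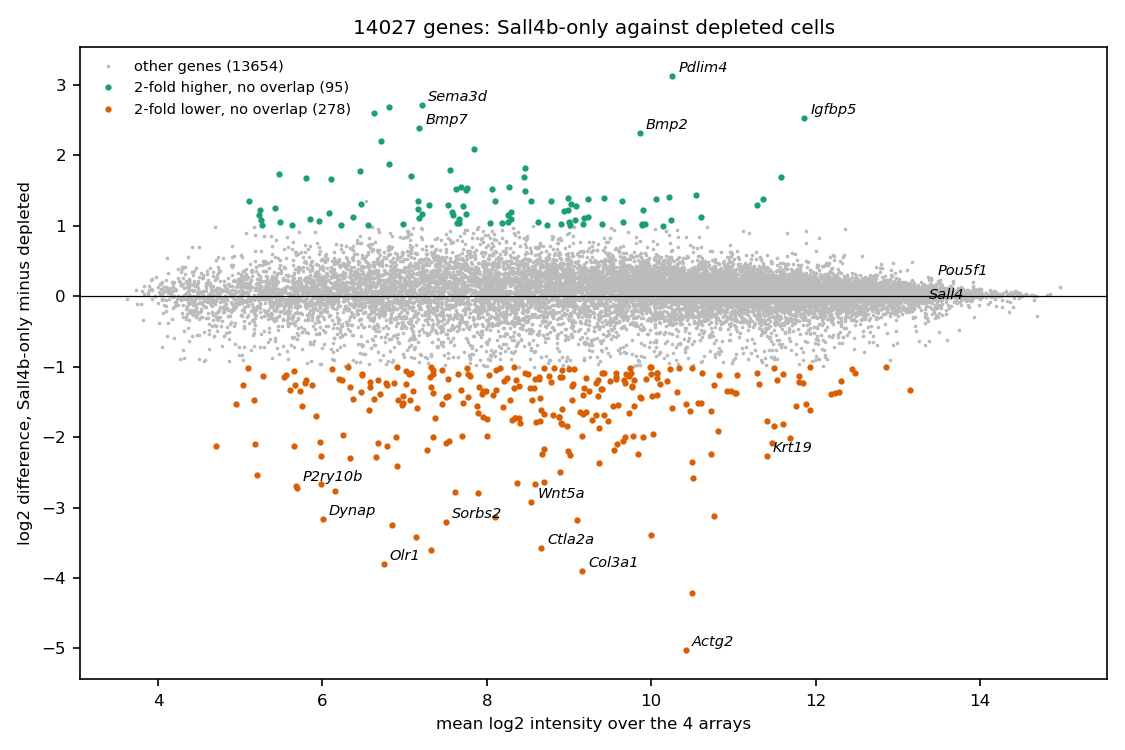
Log2 difference (Sall4b-only minus depleted, vertical axis) against the mean log2 intensity over the 4 arrays (horizontal axis) for each of 14027 genes. Green points are the 95 genes at least 2-fold higher and orange points the 278 at least 2-fold lower with no overlap between arrays; the lower side is fuller and reaches -5.03 for Actg2, against 3.13 for Pdlim4 on the higher side.

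Among higher genes, Sema3d had the smallest p. It encodes a secreted class 3 semaphorin, a guidance cue for axons and migrating cells. Its log2 intensity was 5.84 and 5.85 on the depleted arrays and 8.26 and 8.87 on the Sall4b-only arrays. Control arrays (5.78 and 5.55) and Sall4a-only arrays (5.83 and 5.98) read the same low level as depleted arrays, so only the Sall4b-only arrays were high. The difference of 2.71 log2 (SE 0.21), or 6.56-fold, had a limma adjusted p of 0.0536. Over 18 alternative settings its adjusted p ran from 0.0169 to 0.661, and it passed in 5. A second, dim probe set for Sema3d was also higher, by 0.53 log2. Between the isoforms, Sall4b-only minus Sall4a-only was 2.66 log2 (limma adjusted p = 0.101).

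Timp4, Mef2c, Prima1 and Kcnh1 shared this pattern, in that Sall4b-only arrays lay above all 6 other arrays. Timp4 encodes a secreted inhibitor of matrix metalloproteinases. It was called present on no depleted array (4.52 and 4.36 log2) and on both Sall4b-only arrays (5.66 and 5.91), at least 2.54-fold higher (limma adjusted p = 0.108). Mef2c, a transcription factor of muscle and neural crest, read 5.93 and 6.30 in depleted and 6.99 and 7.19 in Sall4b-only cells, a difference of 0.98 log2 (SE 0.16). Its kept probe sets did not all have the same sign, with a lowest difference of -0.07. Prima1, which anchors acetylcholinesterase to membranes, differed by 1.73 log2 (SE 0.29), and Kcnh1, a voltage-gated potassium channel, by 0.91 (SE 0.14).

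A further set of leading higher genes was high in both add-back groups. Proser2 read 5.30 and 5.85 log2 in depleted, 7.41 and 7.29 in Sall4b-only and 8.39 and 8.05 in Sall4a-only cells. Dlx3, a homeobox factor of placenta and epidermis, read 8.08 and 8.51 in depleted, 9.68 and 9.70 in Sall4b-only and 10.59 and 10.98 in Sall4a-only cells. In both genes the Sall4a-only arrays were the highest of the 8. Lemd1 differed by 1.29 log2 (SE 0.16), the glutamine transporter gene Slc1a5 by 1.15 (SE 0.18), and Bst1, an ectoenzyme that makes cyclic ADP-ribose, by 1.30 (SE 0.21). The remaining leading higher genes were Gas7 (0.90 log2), Slit3 (0.64), Nmb (0.69) and Cd27 (1.08), with limma adjusted p from 0.1999 to 0.2697. In each of them the Sall4b-only arrays lay above all other arrays, as in Timp4.

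On the lower side the smallest p belonged to Dynap, which encodes a membrane protein of the squamous list. Depleted arrays read 7.55 and 7.62 log2, and Sall4b-only arrays read 4.59 and 4.26 with absent calls on both. Control arrays (7.11 and 7.10) were near the depleted level and Sall4a-only arrays (3.85 and 4.49) near the Sall4b-only level. Dynap was thus at least 8.94-fold lower in Sall4b-only cells (-3.16 log2, SE 0.23, limma adjusted p = 0.0536), and it passed in 6 of 18 alternative settings, with adjusted p from 0.00753 to 0.661.

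Olr1, Pla2g4a, Wnt5a, Mbnl1 and Hmga2-ps1 had the same layout, with control and depleted arrays high and the arrays of both add-backs low. Olr1, a scavenger receptor for oxidised lipoprotein, read 8.90 and 8.39 log2 in depleted and 4.83 and 4.85 in Sall4b-only cells, at least 13.97-fold lower (limma adjusted p = 0.108). Pla2g4a, the cytosolic phospholipase that releases arachidonic acid, read 10.06 and 9.80 in depleted and 6.90 and 7.61 in Sall4b-only cells, a difference of -2.67 log2 (SE 0.29). Wnt5a, a secreted ligand of the non-canonical Wnt pathway, read 10.03 and 9.98 in depleted and 7.17 and 6.99 in Sall4b-only cells. Its difference was -2.92 log2 (SE 0.38), and its 4 kept probe sets were all lower, with differences from -2.9982 to -0.6219. For Mbnl1, an RNA-binding splicing regulator, the difference was -1.77 (SE 0.25). Hmga2-ps1 differed by -2.08 (SE 0.27); it is a pseudogene whose probes may read Hmga2, which itself differed by -1.37.

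P2ry10b, Prl3a1 and Prr32 were high in depleted cells alone. P2ry10b, a G protein-coupled receptor gene, read 7.26 and 6.79 log2 on depleted arrays and 4.43 and 4.24 on Sall4b-only arrays, while the other 4 arrays lay between 4.06 and 4.48. The difference was -2.69 log2 (SE 0.21, limma adjusted p = 0.0536). Prl3a1, a placental member of the prolactin family, read 7.36 and 6.74 in depleted and 4.47 and 4.20 in Sall4b-only cells and was at least 6.58-fold lower (limma adjusted p = 0.0903). Prr32 read 6.37 and 6.10 in depleted and 4.39 and 3.87 in Sall4b-only cells, at least 4.30-fold lower. For these 3 genes the Sall4b-only and Sall4a-only arrays gave nearly the same level, with differences of 0.07, 0.05 and 0.01 log2 between the add-backs.

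Sorbs2 and Mbp were lowest in Sall4b-only cells. Sorbs2, an adaptor of the actin cytoskeleton, read 9.40 and 8.81 log2 in depleted, 7.27 and 7.37 in Sall4a-only and 5.57 and 6.23 in Sall4b-only cells, a difference of -3.20 (SE 0.30, limma adjusted p = 0.0903). Mbp, myelin basic protein, read 9.69 and 9.77 in depleted and 7.95 and 8.10 in Sall4b-only cells, while control and Sall4a-only arrays lay between 9.51 and 10.04. Its difference was -1.71 log2 (SE 0.19), and the smallest among its kept probe sets was -0.01. Parm1, a mucin-like membrane protein gene, differed by -1.53 (SE 0.15) and the interferon-induced gene Ifi35 by -1.52 (SE 0.21). Mmp16, a membrane-bound metalloproteinase, differed by -2.13 (SE 0.28) at its brightest probe set and by -0.65 at another that was present on all 8 arrays. Aldh1a1, which makes retinoic acid, was at least 4.90-fold lower. Aldh1a1 and Parm1 were low in both add-back groups. Aldh1a1 read 4.78 and 5.81 in Sall4a-only and 5.14 and 5.25 in Sall4b-only cells, and Parm1 11.15 and 11.39 against 11.07 and 11.17. Picked by size with the values in view, the gene farthest up was Pdlim4 (3.13 log2, SE 0.69) and the farthest down were Actg2 (-5.03, SE 1.23) and Sprr2k (-4.21, SE 0.80).

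**Figure D2:**
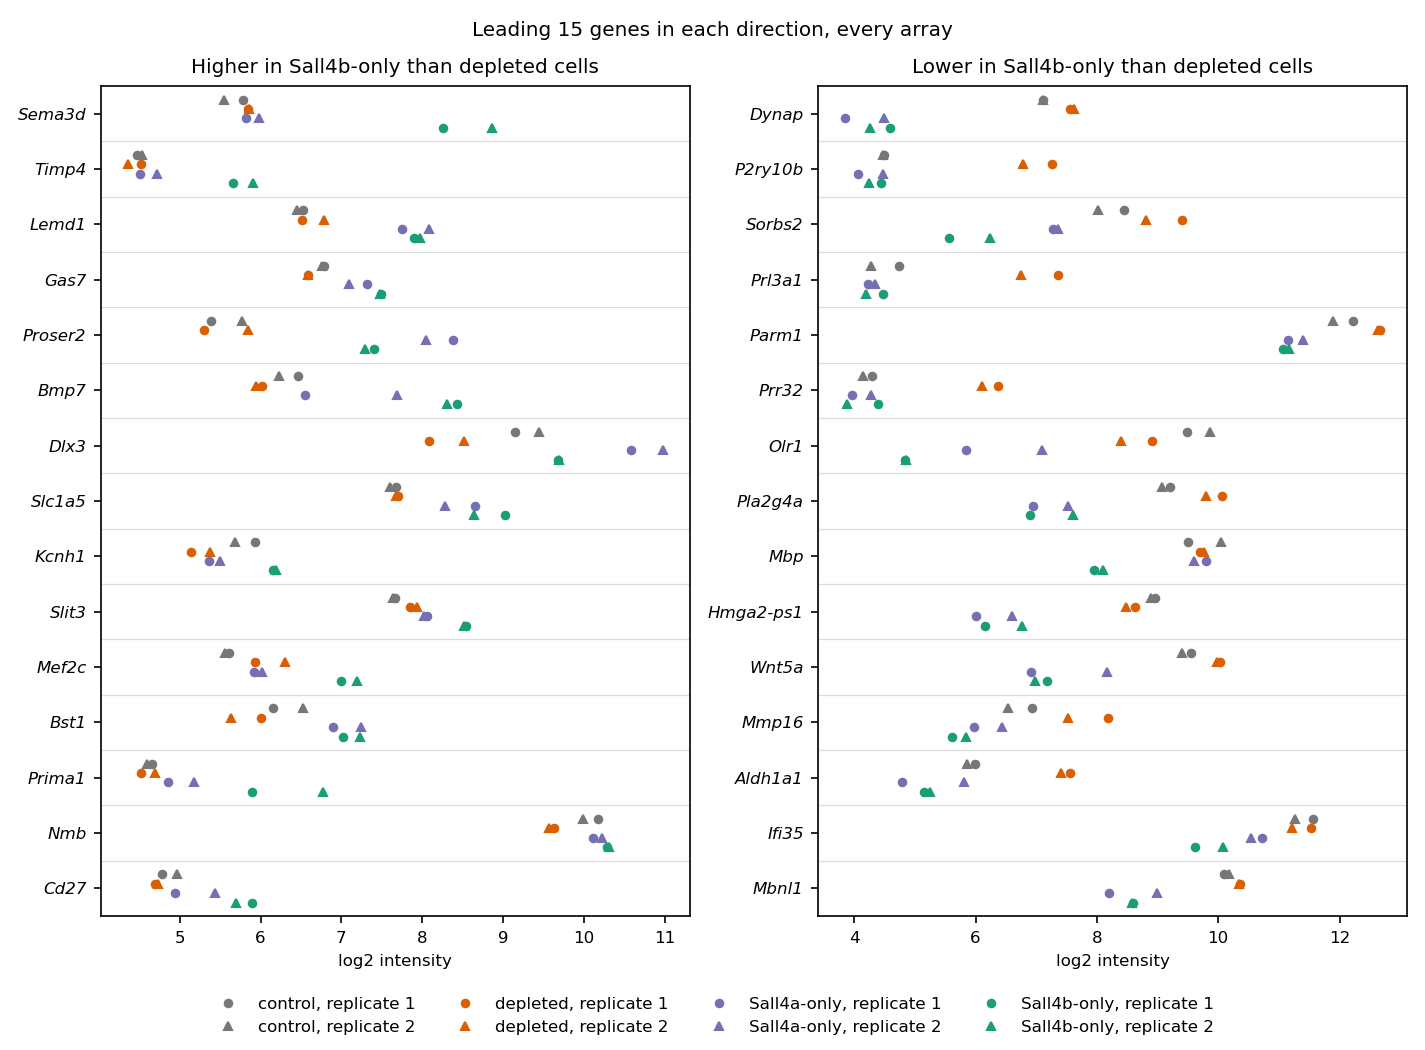
Log2 intensity on each of the 8 arrays for the 15 genes with the smallest p in each direction among named symbols (left panel, higher; right panel, lower in Sall4b-only cells). Colour marks the group and the symbol shape the replicate; Sema3d was high on the Sall4b-only arrays alone (8.26 and 8.87), and P2ry10b on the depleted arrays alone (7.26 and 6.79).

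Genes of the pluripotent state were slightly higher with Sall4b. Of 38 measured members of the general and naive pluripotency list (40 listed), 34 were higher and 4 lower; both Sall4b-only arrays lay above both depleted arrays for 32 and below them for 1, where the shares over all genes are 37.8% and 18.9%. The median difference was 0.19 log2 against 0.06 over all genes. The core factors moved little: Pou5f1 (Oct4) by 0.25 (SE 0.20), Sox2 by 0.19, Nanog by 0.14, Klf4 by 0.27, Esrrb by 0.46 and Zfp42 by 0.18. Gbx2, a homeobox gene downstream of LIF and STAT3, was the only 2-fold member, at 8.82 and 8.96 in depleted and 10.24 and 9.60 in Sall4b-only cells. Prdm14, a repressor that keeps the naive state, read 9.25 and 9.28 in depleted and 10.05 and 10.29 in Sall4b-only cells. None of the list passed limma, and 2 members, both higher, had an unadjusted p under 0.05 (5.1% of all genes were higher at that p).

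Cell cycle genes were higher to the same small extent. In the G2/M list 38 of 39 measured members were higher, and in the G1/S and replication list 37 of 38; in each, 32 members had both Sall4b-only arrays above both depleted arrays (37.8% over all genes). Their medians were 0.23 and 0.24 log2. Kif2c, a kinesin of the mitotic spindle, differed by 0.59 (SE 0.21), and the replicative helicase subunit gene Mcm5 by 0.40 (SE 0.16). Cdk6, a kinase that drives entry into S phase, was the lower member of the G1/S list, at 10.36 and 10.22 in depleted and 9.02 and 9.31 in Sall4b-only cells (-1.13, SE 0.44), and Cdc25b, a phosphatase of mitotic entry, that of the G2/M list (-0.02). Summed ES cell marker intensity was higher on the Sall4b-only arrays as well, as given above; how far the share of ES cells in the culture bears on these lists was not tested. In bulk RNA, fewer cells of a type and less RNA per cell cannot be told apart.

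Trophoblast genes were mostly lower. Of 28 measured members (35 listed), 22 were lower and 6 higher, with a median of -0.38 log2; both Sall4b-only arrays lay below both depleted arrays for 16 members, where the share over all genes is 18.9%. At 2-fold without overlap, 7 were lower and 2 higher (1.98% and 0.677% over all genes). Krt19, a keratin of simple epithelia and trophoblast, read 12.23 and 12.85 in depleted and 10.56 and 9.99 in Sall4b-only cells, a difference of -2.26 (SE 0.41, limma adjusted p = 0.270). Control arrays read 12.80 and 13.40 and Sall4a-only arrays 12.62 and 13.58. Sall4b-only minus Sall4a-only was -2.83 log2 (limma adjusted p = 0.292). Hand1, a basic helix-loop-helix factor of trophoblast giant cells, read 8.64 on each depleted array and 7.05 and 7.46 on the Sall4b-only arrays. It read 10.05 and 9.96 on control arrays and 9.63 and 11.002 on Sall4a-only arrays. Its difference was -1.38 (limma adjusted p = 0.471).

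Other trophoblast members followed that direction with smaller or more variable differences. Krt7 differed by -1.29 log2, Plac1 by -1.29, the X-linked homeobox genes Rhox9 and Rhox6 by -1.25 and -1.18, and Gata2 by -1.12. Cdx2, the factor that founds the trophoblast lineage, differed by -0.31 and Eomes, its partner in trophoblast stem cells, by -0.57. The 2-fold higher members were Dlx3, described above, and Bmp4. Summed intensity of 8 defining trophoblast markers ran from 3014 to 4077.3 on depleted and from 1609.7 to 1998 on Sall4b-only arrays, with Elf5 absent on all arrays of both groups. The same sum ran from 5366.6 to 7043.5 on control and from 8157 to 11343 on Sall4a-only arrays. Depleted cells thus already lay below control in this sum, and Sall4b-only cells lay lower still. The sum is linear, and Krt7 was its brightest member, at 11.42 and 12.07 log2 in control and 10.09 and 10.73 in depleted cells. Hand1, Plac1 and Tpbpa were also lower in depleted than in control cells. Cdx2, Eomes and Gata3 were not: Cdx2 read 8.61 and 7.71 in control and 8.29 and 8.69 in depleted cells. Among placental prolactins, pregnancy-specific glycoproteins and cathepsins, 12 of 38 were measured and 1 differed 2-fold, Prl3a1.

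Keratins and junction genes of simple epithelia, which share Krt19 and Krt7 with the trophoblast list, were lower for 20 of 28 measured members (median -0.19). Cldn4, a tight junction claudin, read 8.36 and 9.20 in depleted and 7.55 and 7.20 in Sall4b-only cells (-1.41, SE 0.42). Krt20 differed by -1.57 (SE 0.67). Of 21 measured squamous and cornified envelope genes, 14 were lower. Krt6a, a keratin of activated keratinocytes, read 7.06 and 7.01 in depleted and 6.24 and 5.59 in Sall4b-only cells, and Krt14 differed by -0.60. On the other side Ivl, a precursor of the cornified envelope, differed by 1.04 (SE 0.77), the basal keratin gene Krt17 by 0.85 and the transglutaminase gene Tgm1 by 0.84, each above on both arrays. The list was thus split, with a median of -0.17.

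Fibroblast and feeder genes were lower as a group. Of 29 measured members (35 listed), 23 were lower and 6 higher, the median was -0.55 log2, and both Sall4b-only arrays lay below both depleted arrays for 20 (18.9% over all genes). At 2-fold without overlap, 11 were lower and 1 higher, against 1.98% and 0.677% over all genes. Col3a1, a fibrillar collagen, read 11.27 and 10.94 in depleted and 7.10 and 7.31 in Sall4b-only cells, a difference of -3.90 (SE 0.87). Lox, which crosslinks collagen and elastin, read 12.09 and 11.30 in depleted and 8.27 and 8.35 in Sall4b-only cells (-3.39, SE 1.08). Groups did not overlap for either gene, but Sall4a-only arrays read 5.64 and 8.55 for Col3a1 and 6.95 and 10.63 for Lox, and that spread enters the SE.

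The rest of the group was graded rather than uniform. Col5a2 differed by -2.24, Tnc by -2.18, Ccl7 by -2.09, Prrx1 by -1.99 and Col1a2 by -1.81 log2, whereas Vim differed by -0.16, Fn1 by -0.25, Tagln by -0.23 and Col6a1 by 1.11. Summed intensity over the 29 members ran from 119889 to 128800 on depleted, 78410.3 to 91959.3 on Sall4b-only, 90961.7 to 102424 on control and 50838.4 to 111356 on Sall4a-only arrays. Of 8 defining fibroblast markers, Thy1, Lum and Dcn had no present call in Sall4b-only cells, against Lum in depleted cells. Summed intensity of the 8 ran from 18436 to 20474 on depleted and from 6516 to 9151.2 on Sall4b-only arrays. On control arrays it ran from 11486 to 16144, and on Sall4a-only arrays from 1851.6 to 15674. The growth protocol in the labels names no feeder layer. The part that a different number of fibroblast-like cells plays in the matrix, contractile and protease results was not tested.

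**Figure D3:**
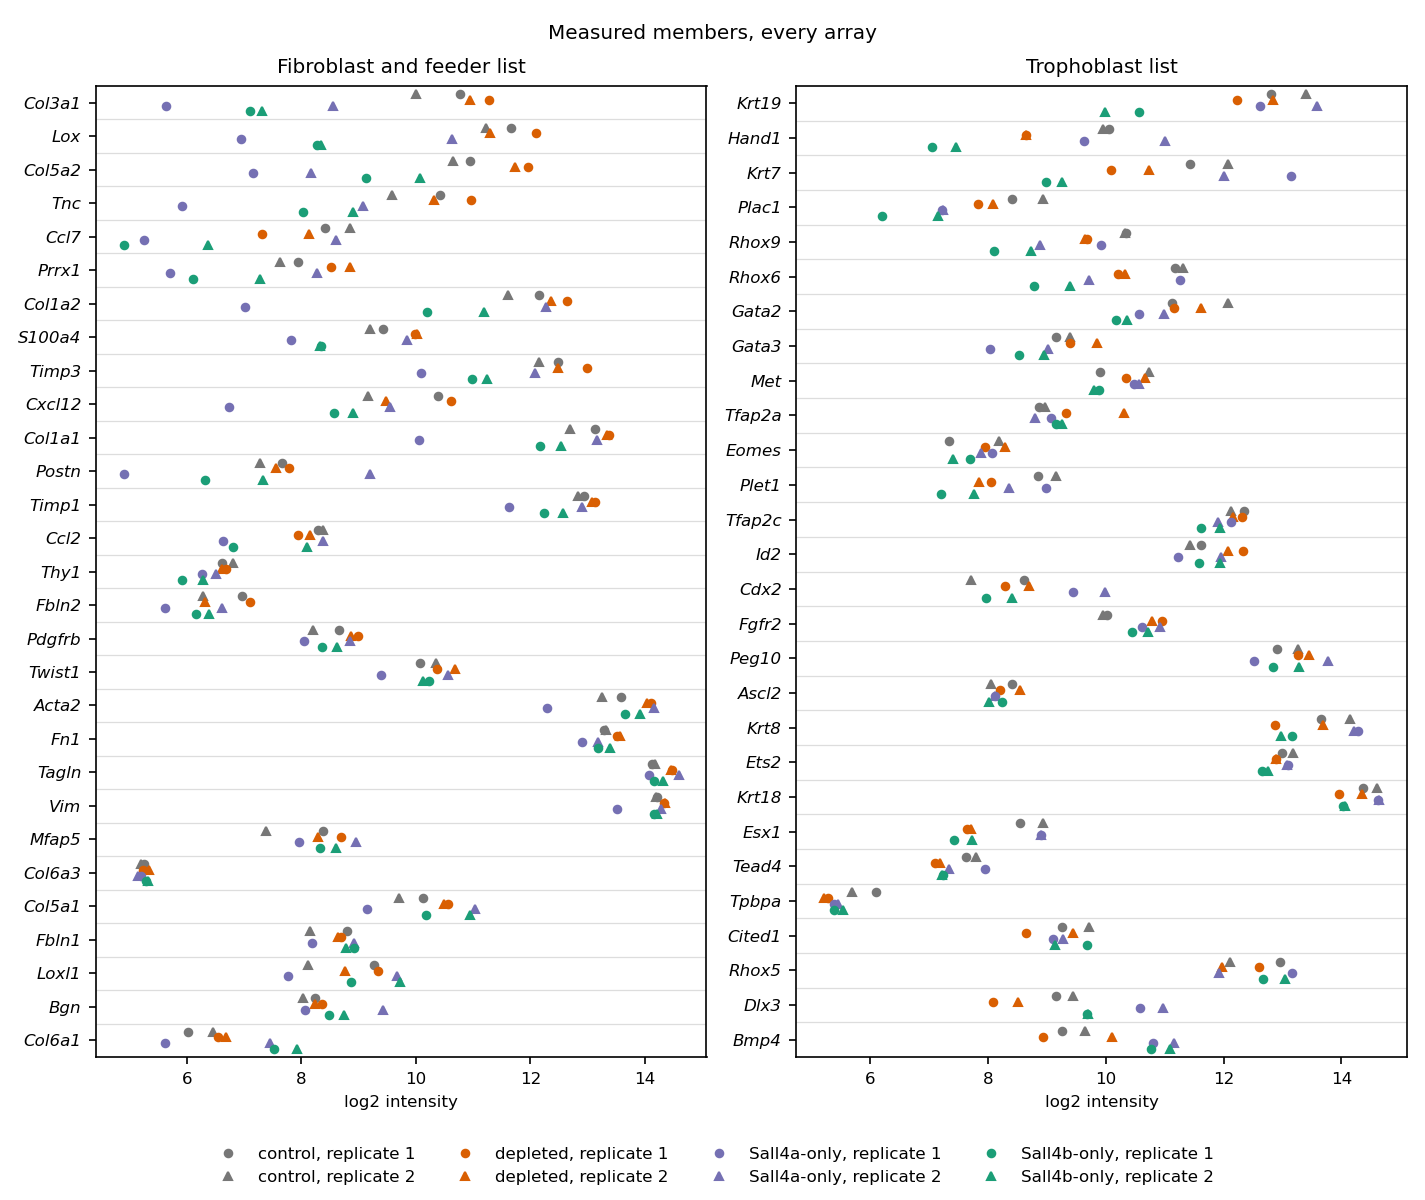
Log2 intensity on each of the 8 arrays for the 29 measured fibroblast and feeder genes (left) and the 28 measured trophoblast genes (right), ordered from the lowest to the highest difference between Sall4b-only and depleted cells. Colour marks the group and shape the replicate; Sall4b-only arrays lie left of the depleted arrays for 20 fibroblast and 16 trophoblast genes, and the Sall4a-only arrays are far apart in the left panel.

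Matrix and contractile genes overlapped this pattern. In the collagen and matrix list 23 of 32 measured members were lower (median -0.26), 9 of them 2-fold (1.98% over all genes), and Col2a1 and Col6a1 were 2-fold higher (0.677%). In the contractile list 23 of 28 were lower (median -0.30), with 17 below on both arrays (18.9% over all genes). Actg2, the smooth muscle gamma actin, read 13.37 and 12.50 in depleted and 8.59 and 7.23 in Sall4b-only cells, with control arrays at 11.17 and 9.70. Lmod1, an actin nucleator of smooth muscle, differed by -2.37 (SE 0.81), and Myh11, smooth muscle myosin, by -1.47 (SE 0.48). Both were near the control level in Sall4b-only cells. Lmod1 read 9.02 and 8.22 in control and 7.81 and 8.55 in Sall4b-only cells, and Myh11 6.505 and 6.342 against 6.18 and 6.19. Sall4a-only arrays read 7.54 and 9.99 for Lmod1, 6.07 and 6.28 for Myh11 and 5.58 and 9.32 for Actg2. Myh11 read 8.47 and 6.85 on the depleted arrays, and leaving out replicates took its difference from -2.28 to -0.66. Tagln2 was the most even of them, at 12.24 and 12.32 in depleted and 11.15 and 11.50 in Sall4b-only cells (-0.96, SE 0.15, limma adjusted p = 0.231), although its kept probe sets did not all have the same sign. Actc1, cardiac actin, lay the other way, at 10.16 and 11.30 in depleted and 11.85 and 13.001 in Sall4b-only cells.

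Most of the matrix protease genes that differed were lower. Of 19 measured matrix metalloproteinase and TIMP genes, 7 were 2-fold lower (1.98% over all genes) and 1, Timp4, was 2-fold higher (0.677%). Mmp10 (stromelysin 2) read 8.36 and 8.37 in depleted and 6.43 and 5.95 in Sall4b-only cells (-2.18, SE 0.42, limma adjusted p = 0.279). Mmp12, macrophage elastase, read 6.27 and 6.12 in depleted cells, was absent on both Sall4b-only arrays (4.91 and 5.34), and was at least 2.10-fold lower. Against control, where it read 8.15 and 8.20, Mmp12 was the only gene of 14027 (0.00713%) to pass limma in Sall4b-only cells (adjusted p = 0.0206). Depleted arrays already lay below control, and Sall4a-only arrays read 4.905 and 5.107. Sall4b-only minus Sall4a-only was 0.12 log2 (limma adjusted p = 0.967). Mmp14 (-1.02), Adamts1 (-1.04) and Timp3 (-1.61) were lower too, and Timp1 and Timp2 differed by -0.69 and -0.40.

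All 12 measured genes of the granzyme, Ctla2 and Serpinb9 clusters were lower, with a median of -1.27 log2. Both Sall4b-only arrays lay below both depleted arrays for 10 (18.9% over all genes), and 7 were 2-fold lower (1.98%). Gzme and Gzmd encode granzymes, serine proteases of cytotoxic granules that mouse placental cells also make. Gzme read 8.78 and 9.47 in depleted and 5.47 and 5.58 in Sall4b-only cells, and Gzmd read 6.10 and 6.86 in depleted and 4.20 and 3.68 in Sall4b-only cells. The Sall4a-only arrays were at opposite ends for Gzme, at 4.61 and 10.75, so its SE was 1.76 log2. Ctla2a, an inhibitor of cysteine proteases, read 11.08 and 9.81 in depleted and 6.75 and 7.001 in Sall4b-only cells (-3.57, SE 0.76), and its paralog Ctla2b differed by -1.9952. Serpinb9b and Serpinb9g, of the granzyme B inhibitor family, differed by -1.20 (SE 0.23) and -1.34 (SE 0.47). These clusters hold close copies, and probes of a paralog may read its neighbour.

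The BMP ligands Bmp7, Bmp2 and Bmp4 lay on the higher side. BMPs are secreted factors of the TGF-beta family; in mouse ES cells BMP with LIF maintains self-renewal through the Id genes. At its brightest probe set Bmp7 read 6.01 and 5.95 log2 in depleted and 8.43 and 8.31 in Sall4b-only cells (2.39 log2, SE 0.35, limma adjusted p = 0.213). A second probe set, called present on all 8 arrays, differed by 0.90. Control arrays read 6.46 and 6.23 and Sall4a-only arrays 6.55 and 7.68, so the Sall4b-only arrays were the highest of the 8. Over 18 alternative settings the adjusted p of Bmp7 ran from 0.00753 to 0.9998, and it passed in 4. Bmp2 read 8.28 and 9.13 in depleted and 10.80 and 11.23 in Sall4b-only cells (2.31 log2), and Bmp4 read 8.93 and 10.10 in depleted and 10.76 and 11.09 in Sall4b-only cells (1.41). Groups did not overlap for any of the 3 ligands. Sall4a-only arrays read 8.801 and 11.425 for Bmp2 and 10.81 and 11.15 for Bmp4. Of the other ligands in the list, Bmp15 differed by 0.26 and Bmp5 by -3e-04. Bmp8b differed by -0.55, with both Sall4b-only arrays below both depleted arrays.

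Downstream members of the BMP list did not share a direction. Bambi, a decoy receptor, read 9.96 and 10.002 in depleted and 10.61 and 10.74 in Sall4b-only cells (0.69, SE 0.12, limma adjusted p = 0.270), and the homeobox gene Msx2 differed by 1.00. Id1, Id2 and Id3, the direct BMP targets that block differentiation, differed by -0.31, -0.44 and -0.58, with both Sall4b-only arrays below both depleted arrays in each. Of 28 measured members, 12 were higher and 16 lower (median -0.06), 5 were 2-fold higher (0.677% over all genes) and 1, Gata2, 2-fold lower (1.98%). At an unadjusted p under 0.05 there were 6 higher, where the share over all genes is 5.1%, and 2 lower (3.76%).

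**Figure D4:**
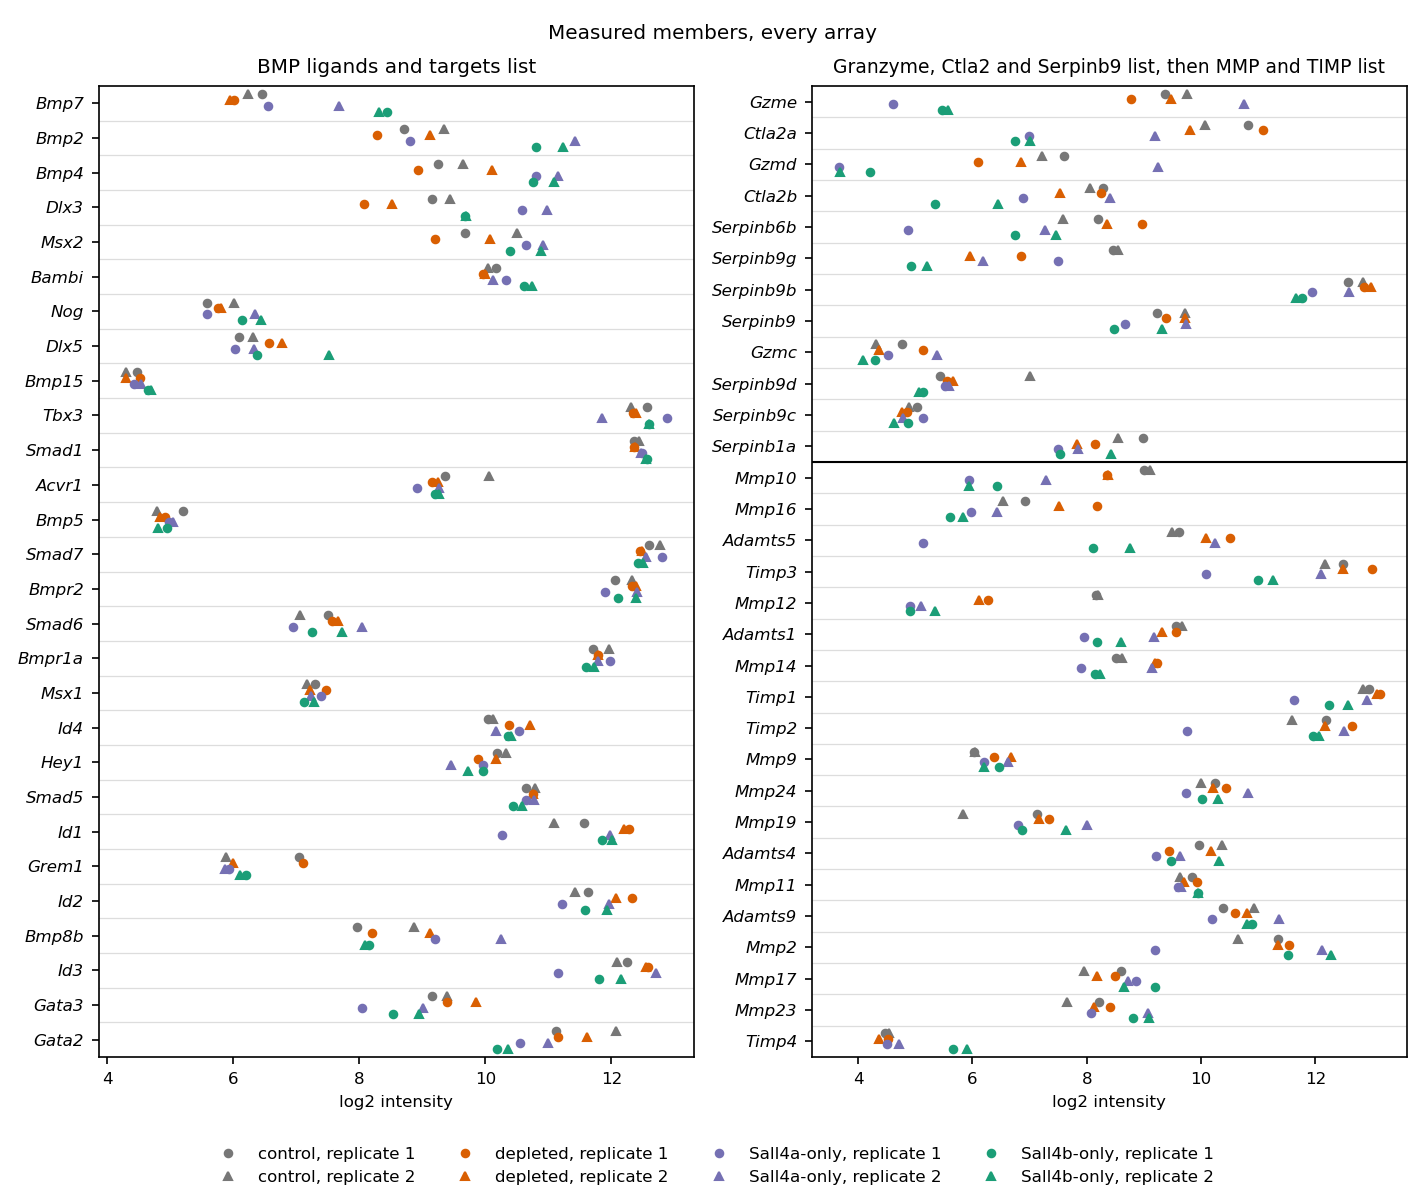
Log2 intensity on each of the 8 arrays for the 28 measured BMP ligands and targets (left) and, at right, the 12 measured granzyme, Ctla2 and Serpinb9 genes above the line and the 19 metalloproteinase and TIMP genes below it. Colour marks the group and shape the replicate; Bmp7, Bmp2 and Bmp4 lie higher in Sall4b-only than in depleted cells, and Gzme, Ctla2a and Mmp10 lower.

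Promoter windows of 6 genes described above are shown because the protein is known to bind AT-rich DNA and because the lower genes include protease and placental genes with known AP-1 control. They are the 250 bases before the annotated start, from RefSeq on build GRCm38.p6, written 5′ to 3′ on the gene's strand. Capitals mark 3 motifs searched on both strands: AATATT, the TATA box letters TATAAA, and the AP-1 letters TGANTCA. The first and second can overlap in AT-rich stretches. Mmp10 is chr9:7502092-7502341 (plus strand), Prl3a1 chr13:27259239-27259488 (plus), Prr32 chrX:45090654-45090903 (plus), Gzmd chr14:56132594-56132843 (minus), Gzme chr14:56120626-56120875 (minus) and Sema3d chr5:12382916-12383165 (plus).
Mmp10: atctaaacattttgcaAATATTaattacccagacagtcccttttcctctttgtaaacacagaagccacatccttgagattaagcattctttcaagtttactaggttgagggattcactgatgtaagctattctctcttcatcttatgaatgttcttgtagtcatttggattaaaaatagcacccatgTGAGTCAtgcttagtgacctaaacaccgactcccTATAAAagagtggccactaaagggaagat
Prl3a1: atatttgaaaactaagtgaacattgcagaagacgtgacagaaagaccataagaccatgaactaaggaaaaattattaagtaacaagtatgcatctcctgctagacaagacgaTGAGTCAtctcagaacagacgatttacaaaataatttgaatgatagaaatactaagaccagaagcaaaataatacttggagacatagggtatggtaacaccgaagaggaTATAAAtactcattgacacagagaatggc
Prr32: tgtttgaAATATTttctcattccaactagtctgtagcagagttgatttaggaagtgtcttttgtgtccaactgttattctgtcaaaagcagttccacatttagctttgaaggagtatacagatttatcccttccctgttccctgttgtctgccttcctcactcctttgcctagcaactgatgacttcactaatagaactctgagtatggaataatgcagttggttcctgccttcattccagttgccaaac
Gzmd: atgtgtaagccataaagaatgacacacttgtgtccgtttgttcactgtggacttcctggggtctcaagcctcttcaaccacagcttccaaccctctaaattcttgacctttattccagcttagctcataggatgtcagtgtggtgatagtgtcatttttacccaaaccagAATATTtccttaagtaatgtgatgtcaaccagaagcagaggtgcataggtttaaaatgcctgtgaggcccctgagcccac
Gzme: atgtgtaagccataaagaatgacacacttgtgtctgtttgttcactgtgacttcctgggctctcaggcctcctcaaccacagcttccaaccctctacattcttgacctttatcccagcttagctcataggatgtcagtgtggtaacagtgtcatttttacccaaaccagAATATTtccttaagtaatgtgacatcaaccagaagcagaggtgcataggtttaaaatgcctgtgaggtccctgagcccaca
Sema3d: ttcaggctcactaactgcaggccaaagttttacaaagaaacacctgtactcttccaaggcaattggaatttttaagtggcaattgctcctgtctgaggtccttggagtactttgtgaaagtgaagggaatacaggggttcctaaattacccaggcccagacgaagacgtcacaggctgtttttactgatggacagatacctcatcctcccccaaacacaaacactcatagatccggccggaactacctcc

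In Mmp10 the AP-1 letters start 63 bases, the TATA letters 29 bases and AATATT 234 bases before the gene start. Prl3a1 has the TATA letters at 29 and the AP-1 letters at 138 bases, and Prr32 has AATATT at 243. Gzmd and Gzme carry AATATT at 80 and 81 bases; their windows are identical at 238 of 251 aligned columns (94.8%), so they are near copies and not separate observations. Sema3d, the leading higher gene, holds none of the 3. The windows shown are examples and cannot stand for the lower or the higher genes as sets. Of 10 leading higher genes with a window, 1 held the AP-1 letters, 1 the TATA letters and 0 AATATT. Of 10 leading lower genes with a window, 5 held the AP-1 letters, 4 the TATA letters and 3 AATATT. A match is a description of letters and not a site.

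Shares of promoters with each motif were counted over the 2-fold genes and over all genes tested, as a description with no test. Of 205 2-fold lower genes with a window, 35 (17.1%) held TGANTCA, against 4 of 68 (5.88%) of the 2-fold higher genes and 5.83% of the 11286 genes tested that have a window. AATATT stood in 15 of 205 (7.32%) lower and 2 of 68 (2.94%) higher genes, against 3.74% of genes tested. TATAAA stood in 21.5% of lower and 16.2% of higher genes, against 8.59%. Over all 32851 windows of the table the shares were 6.75% for the AP-1 letters, 6.17% for AATATT and 12.4% for TATAAA. The genes that encode AP-1 and other immediate early factors were lower for 18 of 26 measured members (median -0.18), 12 of them on both arrays (18.9% over all genes) and none 2-fold. Fos read 10.61 and 10.91 in depleted and 9.81 and 9.89 in Sall4b-only cells (-0.91, SE 0.25, limma adjusted p = 0.425). Fosl1 differed by -0.69 and Zfp36 by -0.72, while Jun differed by 0.03 and Junb by 0.25.

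Primitive endoderm, neuroectoderm and Hox genes were divided between higher and lower. Of 28 measured primitive endoderm genes 15 were higher and 13 lower; Gata4 differed by 0.09, Gata6 by -0.0027 and Sox17 by 0.49 with overlapping arrays. In this list Thbd was 2-fold lower (-2.19) and Dkk1, a secreted Wnt inhibitor, 2-fold higher (1.38). Neuroectoderm genes split 14 to 14, with Six3 at 7.60 and 7.65 in depleted and 6.71 and 6.86 in Sall4b-only cells (-0.84, SE 0.16) and Pax3 at -1.64 (SE 0.38). Of 27 measured Hox genes 12 were higher and 15 lower; Hoxb13 differed by -1.29 (SE 0.24) and Hoxd10 by 1.10 (SE 0.28). Mesoderm genes were lower for 10 of 17 (median -0.31), 8 of them on both arrays (18.9% over all genes). Foxf1 was 2-fold lower, and Tbx20 differed by -0.84. Foxf1 read 10.16 and 8.62 on the depleted arrays, and leaving out replicates took its difference from -1.99 to -0.46.

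Epiblast genes split 9 to 8. Fgf15 differed by 1.07, but it was present on no depleted array and on 1 of 2 Sall4b-only arrays (7.05 and 5.95). Leaving out replicates took its difference from 0.52 to 1.62. Pou3f1 (Oct6), a factor of primed cells, differed by 1.11. Fgf5, the usual marker of that state, was present on 1 of 2 depleted arrays and neither Sall4b-only array. By its group means it was at least 2.16-fold lower (-1.11 log2, SE 0.58). Leaving out replicates took that difference from -1.50 to -0.72. Sox4 read 12.61 and 12.48 in depleted and 11.57 and 11.81 in Sall4b-only cells (-0.86, SE 0.14, limma adjusted p = 0.263), and its 6 kept probe sets were all lower.

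Chromatin partners of Sall4 were near the median of all genes. The NuRD list, which also holds the CoREST corepressor genes Rcor1 and Rcor2, had all 18 genes measured, with 11 higher, 7 lower and none 2-fold. Rcor2 differed most (0.66, SE 0.30), Hdac1 by 0.29 (SE 0.11) and Mbd3 by 0.17. Polycomb genes were higher for 19 of 29, led by Phc1 (0.57, SE 0.20). Within the SALL family, Sall1 differed by -0.07, Sall2 by 0.21 and Sall3 by 0.06, all with overlapping arrays. In the amino acid and unfolded protein response list, 16 were higher and 18 lower with none 2-fold; Chac1 differed by 0.97 (SE 0.29), Atf5 by 0.73 and Atf4, the factor that drives both, by 0.48, each above on both arrays.

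**Figure D5:**
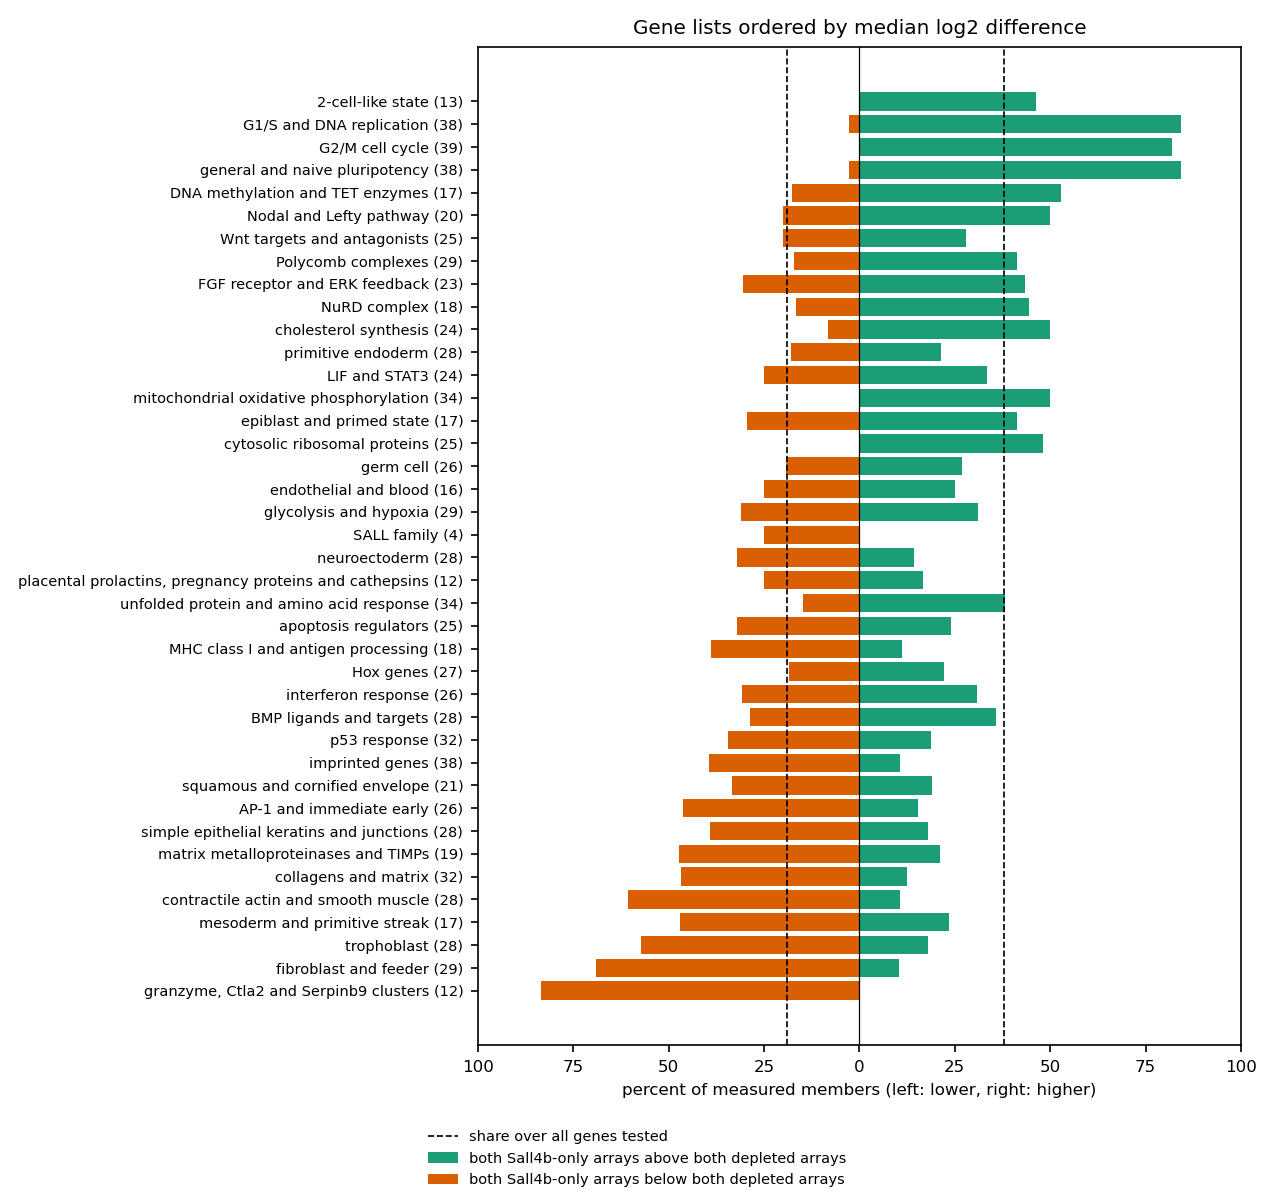
Share of the measured members of each of 40 gene lists (number measured in brackets) whose Sall4b-only arrays both lay above (green, right) or both lay below (orange, left) the depleted arrays, ordered by the list's median log2 difference. Dashed lines mark the shares over all genes tested (37.8% and 18.9%); cell cycle and pluripotency lists extend past the line at right, and the granzyme, fibroblast, trophoblast and contractile lists past the line at left.

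Set beside the other add-back, Sall4b-only cells differed from Sall4a-only cells at 0 genes by limma, with 820 at an unadjusted p under 0.05 and a smallest adjusted p of 0.101. Both comparisons of an add-back with depleted cells use the same depleted arrays. Sall4b-only minus Sall4a-only was 2.66 log2 for Sema3d, -2.83 for Krt19, -1.68 for Mbp, -1.42 for Sorbs2 and 1.17 for Timp4, and within 0.3 for Dynap, P2ry10b, Prl3a1, Prr32, Pla2g4a and Mbnl1. At the edge of the 2-fold criterion, Msx2 (1.00) and Copz2 (-1.0007) lay just inside it and Iglon5 (-0.9998) and Limch1 (-0.9986) just outside.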

How the data were processed

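The authors deposited linear intensity values, 1 per probe set and array; they came from RMA (version unstated), per the submitters' processing notes. The table also holds present calls, made by a method not stated in the sources. Its 45101 probe sets include 64 controls, left out. GEO's platform annotation gave 1 symbol for 34945 probe sets. Those with a present call on 2 or more of the 8 arrays were kept (26080 with 1 symbol), and the brightest stood for each of 14027 genes. Log2 was taken with no pseudocount. With limma 3.58.1 in R 4.3.3, lmFit and eBayes fitted 4 group means to 8 arrays, leaving 4 residual degrees of freedom and 6.2 after moderation; p-values were adjusted by Benjamini-Hochberg, with a threshold of 0.05. The test was checked on simulated data.

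Named genes are Sall4, the 15 genes a direction with the smallest p and no overlap (none passed), up to 4 of each of 40 lists by p, and a fixed set that includes Pou5f1, Cdx2, Gata6 and Mmp12 (T was not measured). Predicted genes and clones were passed over. List members named beyond these were chosen after their values were seen. Members and lists were chosen with earlier results of these data known. Where no probe set of a gene was present on any array of the dim group, a fold is given as "at least". For the genes so described it equals the fold of the group means, and it is no bound on the spread between arrays. Promoter windows came from RefSeq. Alternatives changed the samples fitted, the prior, the filter, the choice of probe set, the normalization, a pseudocount and a replicate block.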

Additional observations from a re-analysis of the deposited data

How the results depend on the processing

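The count of 0 genes past 0.05 depended on the samples fitted and the prior. Higher and lower, it became 9 and 52 with only the depleted and Sall4b-only arrays, 12 and 54 without the Sall4a-only arrays, 1 and 6 with a trended and robust prior (Sema3d against Dynap, P2ry10b, Parm1, Prl3a1, Sorbs2 and Prr32), and 0 and 1 with log2(intensity + 32); 5 genes passed in all of the first 3 of these. It stayed at 0 and 0 with no filter, a stricter filter, mean probe sets, quantile normalization or each probe set alone. Leaving out each replicate in turn gave 0 to 12 higher and 0 to 54 lower: 12 and 54 without either Sall4a-only replicate, since a lone array adds no residual degree of freedom, and 1 lower without depleted replicate 2. Genes 2-fold apart without overlap were 58 higher with log2(intensity + 32), and 95 to 149 higher and 240 to 402 lower on leaving out replicates, the 149 without Sall4b-only replicate 2. Same-numbered replicates of depleted and Sall4b-only cells deviated with r = -0.116 across genes. Control and depleted replicates deviated with r = 0.568, and Sall4a-only and Sall4b-only replicates with r = 0.196. Not every pair of groups was over 0.1, so the main fit did not pair samples by number. Whether some groups shared a batch was not tested. A replicate block gave 0 and 0 genes. Chosen after the data were seen, the block in the 4 arrays gave 0 and 0, and a crossed pairing 38 and 148. With probe sets averaged, Sall4 turned to 0.0775 and Zmynd8 to -0.1476. Gata6 turned to 0.0187 under quantile normalization and 0.0059 with log2(intensity + 32). Leaving out replicates took Gata6 from -0.607 to 0.6017, Gata4 from -0.4743 to 0.6567, Sox17 from -0.2916 to 1.2787, Sall1 from -0.175 to 0.0397, Sall2 from -0.0193 to 0.4339 and Sall3 from -0.112 to 0.2343; without depleted replicate 1 Sall3 was -0.112, and without Sall4b-only replicate 1 it was -0.0222; Gata6 was 0.1363 without depleted replicate 1. All other named genes kept their direction, 48 gene values passed the threshold under an alternative and 18 of 400 list medians moved beyond the replicate spread. Dim genes near the absent call have compressed folds, and 2 arrays a group limit every SE.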

Other observations

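Some of the genes 2-fold lower with Sall4b were neighbours on the chromosome. Of 13999 genes with a position, ordered along the chromosomes, 25 runs of adjacent measured genes were 2-fold lower together and 1 was higher (Fam13c and Phyhipl, at 1.03 and 1.05 log2), 55 genes in all. The longest run held 4 guanylate-binding protein genes, interferon-induced GTPases: Gbp7 (-1.21), Gbp3 (-1.29), Gbp2b (-1.79) and Gbp2 (-1.48). The interferon list as a whole held 13 higher and 13 lower of 26 measured genes, with Stat2, a signalling factor of the pathway, at 0.43.

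Anxa1 (-1.34), Aldh1a1 (-2.29) and Aldh1a7 (-3.42) formed a run of 3. Aldh1a7 read 8.89 and 8.82 log2 in depleted and 5.12 and 5.75 in Sall4b-only cells. Pla2g4a and Ptgs2, which act in succession in prostaglandin synthesis, are neighbours, and Ptgs2 read 12.68 and 12.72 in depleted and 10.63 and 10.74 in Sall4b-only cells (-2.01, SE 0.49, limma adjusted p = 0.380). Cav1, the coat protein of caveolae, read 12.47 and 12.19 in depleted and 9.12 and 9.31 in Sall4b-only cells, and its neighbour Cav2 differed by -1.18. Several runs hold paralogs (Gbp, Ctla2, granzymes, Rhox), whose probes may read each other. All genes of these 2 paragraphs other than those of the lists were chosen after their values were seen, and no test of neighbourhood was made.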
